A study of Mus musculus with 7 samples.

Results

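Chemokines are small secreted proteins that direct the migration of leukocytes, and the RNAs of the chemokines and of their receptors were compared here between 2 mouse genotypes in mammary tissue. The members were the panel genes whose symbol begins with Ccl, Cxcl, Ccr, Cxcr or Ackr and a digit, together with Cx3cl1, Cx3cr1, Xcl1 and Xcr1. They numbered 55 of 23930 genes on the panel, as 33 ligands, 19 receptors and 3 atypical receptors. Each mouse was parous, of mixed background, and bore a tumor, and the tissue was taken from the contralateral side. The control group held 3 Blg-Cre;Brca1f/f;Trp53+/− mice (mice 1, 2 and 3). The HMMRTg/Tg group held 4 animals (mice 7, 8, 9 and 11). The labels call them matched to the controls in age, while the paper gives a lower average age at sacrifice for its HMMRTg/Tg group of contralateral tissue. Their genotype was Blg-Cre;HMMRTg/Tg;Brca1f/f;Trp53+/−. Both groups thus shared the floxed Brca1 alleles, the heterozygous Trp53 and the Cre driver, and differed in the human HMMR coding sequence placed in the Rosa26 locus behind a stop that Cre removes. Blg-Cre is driven by the promoter of a milk protein and is directed to mammary epithelium, whereas most chemokine receptors and many of the ligands are known from leukocytes and stroma. The authors extracted RNA from paraffin sections, read 1 amplicon per gene, and deposited each amplicon's reads relative to 1000000 reads on the panel (RPM).

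Most chemokines bind receptors with 7 membrane spans that signal through inhibitory G proteins, and most are named by the spacing of their first cysteines (CC, CXC or CX3C). Homeostatic chemokines such as Cxcl13 place lymphocytes within lymphoid tissue. Inflammatory chemokines such as Ccl2 or Cxcl1 draw monocytes or neutrophils out of blood, and those induced by interferon gamma, such as Cxcl9, draw activated T cells. In the mammary gland macrophages accompany the growth of ducts, and a lymph node lies within some of the fat pads. The members were separated by their best known role into a lymphoid tissue class (8 members), a T cell, NK cell and dendritic cell class (15), a myeloid class (21) and a stromal and epithelial class (11). Many members act in more than one class.

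Libraries held 5532357 to 9345915 reads, a count of 0 allows 0.321 to 0.542 RPM (3 reads, counting error only), and the totals did not separate the groups (exact permutation test, two-sided, p = 0.971). The amplicon of mouse Hmmr, which is not the human transgene, was at 1.45 to 4.08 RPM in control and 2.43 to 12.2 RPM in HMMRTg/Tg mice (Hmmr log2 fold change 1.07, adjusted p = 0.533 from limma). Markers of luminal epithelium were read in every mouse, with sums of 2713 to 3197 RPM in control and 3089 to 4419 RPM in HMMRTg/Tg mice. Control mouse 2 stood apart from the other controls. Its 12 B cell markers summed to 26.6 RPM, against 1056 and 1178 RPM in control mice 1 and 3, and its 14 skeletal muscle markers to 10355 RPM, against 3667 and 1883 RPM. Skeletal muscle markers summed to 22.6 to 119 RPM in HMMRTg/Tg mice, below every control, and the 7 basal epithelial markers to 780 to 1242 RPM, above every control (668 to 725 RPM). The part of control mouse 2 and of the B cell markers in the results below was not tested, other than by the runs named. The skeletal muscle and basal epithelial sums separate the genotypes. Their part in a difference between the genotypes was not tested and cannot be told apart from that of genotype. RNA of whole sections does not tell fewer cells of a type from less RNA per cell. Reads of different amplicons are not comparable between genes, so each gene is compared only with itself.

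Of the 55 members, 42 reached 1 RPM in at least 3 mice and were tested with limma on log2(RPM + 1) among 13080 genes. After Benjamini-Hochberg adjustment over all genes, 0 members were called at an adjusted p under 0.05. Of all genes tested 0.405% were called, 0.367% as lower and 0.0382% as higher. At an unadjusted p under 0.05, 4 members were lower in HMMRTg/Tg mice, namely Ccl6, Ccl8, Cxcl12 and Cxcl15, or 9.52% of the members beside 3.22% of all genes. The 1 higher member was Cxcl1, or 2.38% beside 6.49%. The count tests on the recovered reads gave 0 adjusted calls in edgeR, beside 0.528% of all genes, with 6 members lower and 1 higher at an unadjusted p under 0.05, beside 5.13% and 4.44% of all genes. DESeq2 called 3 members lower, Cxcl12, Cxcl15 and Ccl8, beside 1.43% of all genes, and 0 higher, beside 0.604%. At an unadjusted p under 0.05 DESeq2 had 8 members lower and 1 higher, beside 5.96% and 4.56% of all genes. Without control mouse 2, limma had 15 members lower at an unadjusted p under 0.05, or 35.7%, beside 5.15% of all genes, and 0 at an adjusted p under 0.05. The groups did not overlap for 3 lower members (7.14%, beside 3.34% of all genes) and 1 higher member (2.38%, beside 6.52%). The log2 fold change lay below 0 for 30 of 42 members, or 71.4%, beside 38.8% of all genes. This count was 34 in DESeq2 and 24 without control mouse 3. Over the members the median log2 fold change was −0.37, and over all genes it was 0.11 in limma, 0.01 in edgeR and −0.01 in DESeq2.

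**Figure D1:**
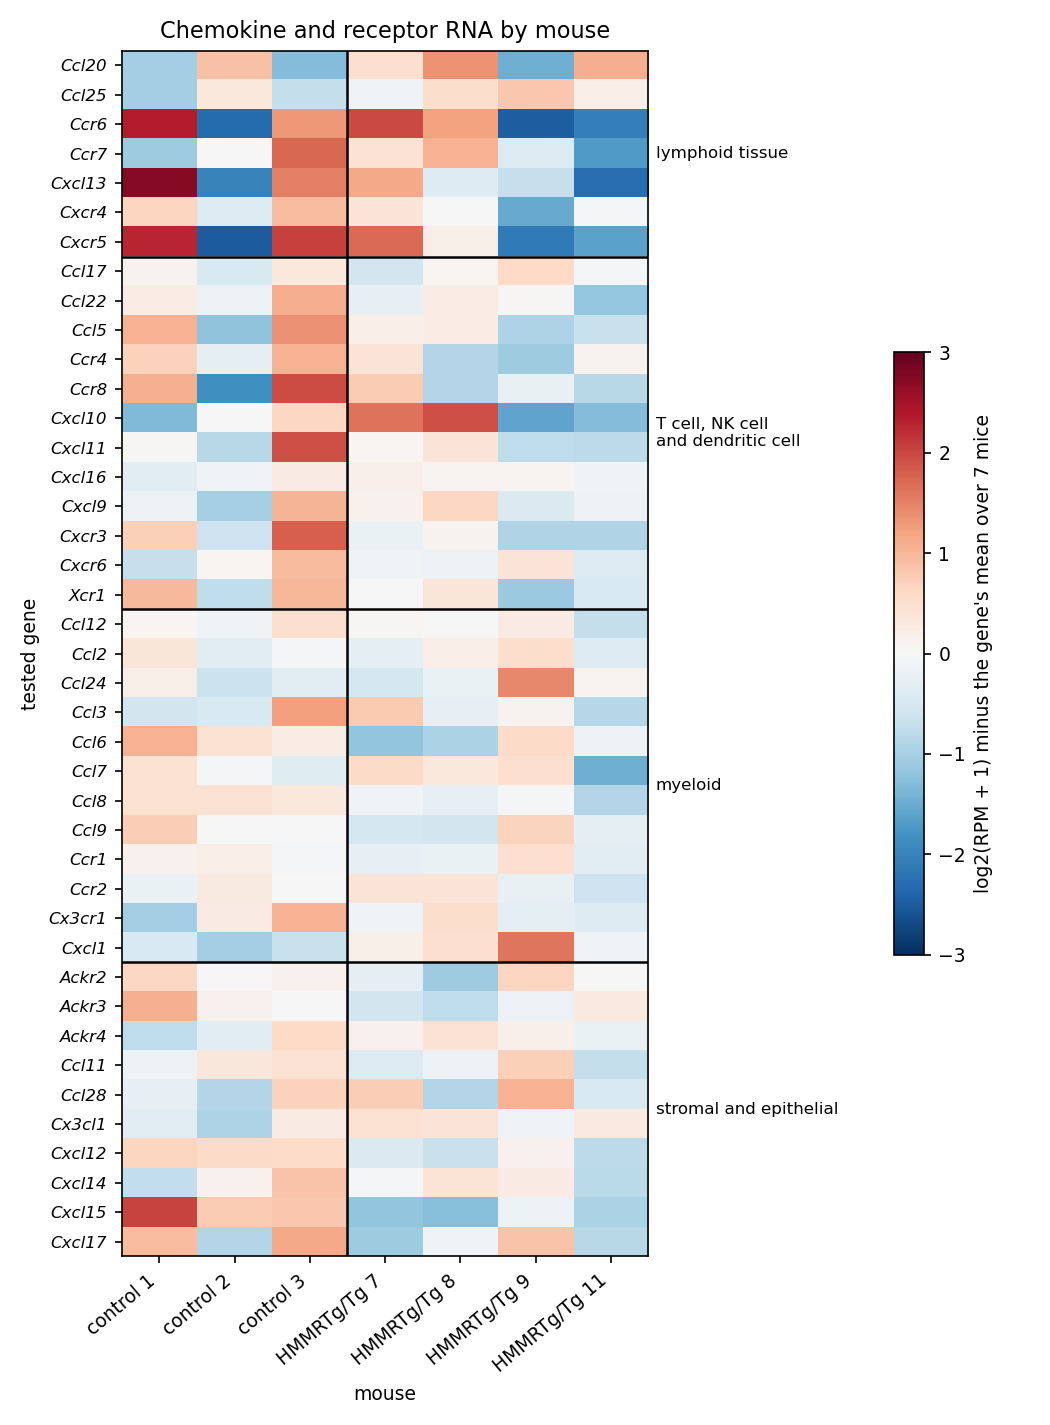
Level of 41 of the 42 tested members in each mouse, as log2(RPM + 1) minus the mean of that gene over the 7 mice, in 4 classes by role. Red is above and blue below the gene's own mean, and the strongest colors, in Ccr6, Cxcl13 and Cxcr5, divide mice within both genotypes.

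Cxcl12 and Cxcl15, both of the stromal and epithelial class, had the lowest p of the members. Cxcl12, the stromal ligand of Cxcr4 that retains leukocytes and progenitors in tissue, was read at 300.2, 288 and 282 RPM in control mice 1, 2 and 3. It was read at 143, 121, 212 and 112 RPM in HMMRTg/Tg mice 7, 8, 9 and 11. The 3 controls lay close together and above every HMMRTg/Tg mouse, of which mouse 9 was nearest to them. The control mean was 289.8 ± 9.51 RPM (SD, n = 3) and the HMMRTg/Tg mean 147 ± 45.1 RPM (SD, n = 4), and limma gave a log2 fold change of −1.02 ± 0.23 (SE) with an adjusted p of 0.126. It was lower in DESeq2 (log2 fold change −1.12, adjusted p = 0.00252), was not called in edgeR (adjusted p = 0.112), and was called by limma without mouse 9 (log2 fold change −1.21, adjusted p = 0.0301), where 0.489% of all genes were called. Over 17 alternative settings its log2 fold change ran from −1.21 to −0.91 and its adjusted p from 0.00252 to 0.398. The fibroblast markers, from cells known to make Cxcl12, summed to 3797 to 6193 RPM in control and 4547 to 5149 RPM in HMMRTg/Tg mice and overlapped. Within that list Pdgfra had a log2 fold change of −0.40 and Col1a1 of 0.94.

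The receptors of Cxcl12 had negative values too, but their groups overlapped. Cxcr4, which carries the signal in lymphocytes and other leukocytes, was read at 97.6, 46.3 and 119 RPM in control mice and at 81.5, 62.3, 21.1 and 60.9 RPM in HMMRTg/Tg mice (log2 fold change −0.67, standard error 0.45, adjusted p = 0.664 from limma). Ackr3, an atypical receptor that removes Cxcl12 without signaling through G proteins, was read at 178, 92.6 and 83.9 RPM in control mice. In HMMRTg/Tg mice it was at 57.8, 49.9, 75.1 and 104 RPM (log2 fold change −0.69, standard error 0.32, adjusted p = 0.523). Only mouse 11 of that group lay within the control range of Ackr3.

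Cxcl15, named lungkine for its expression in mouse lung epithelium and known there as a neutrophil attractant, had the largest negative value of the tested members. It was read at 33.3, 13.4 and 13.8 RPM in control mice 1, 2 and 3 and at 2.69, 2.46, 6.39 and 3.35 RPM in HMMRTg/Tg mice 7, 8, 9 and 11. Control mouse 1 was far above the rest, and mouse 9 was again the HMMRTg/Tg mouse nearest to the controls. The control mean was 20.1 ± 11.4 RPM (SD, n = 3) and the HMMRTg/Tg mean 3.72 ± 1.82 RPM (SD, n = 4), and limma gave a log2 fold change of −2.11 ± 0.42 (SE) with an adjusted p of 0.0742. DESeq2 called it (log2 fold change −2.62, adjusted p = 6.71e-05) and edgeR did not (adjusted p = 0.0581). Over the 17 settings the log2 fold change ran from −2.62 to −1.08 and the adjusted p from 6.71e-05 to 0.263.

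**Figure D2:**
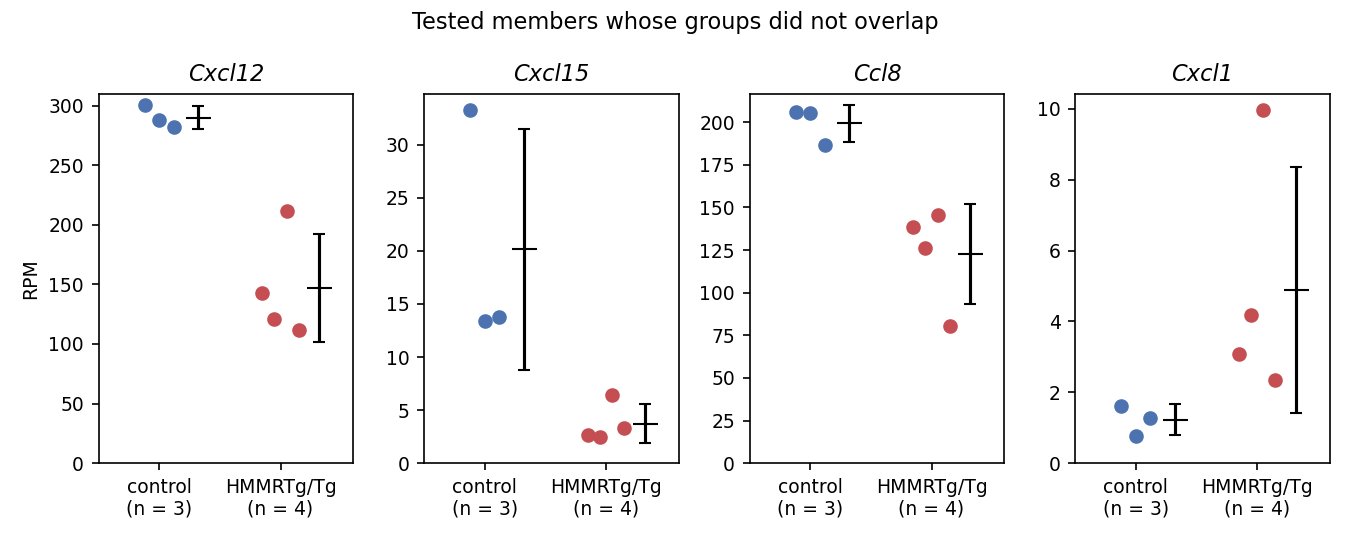
RPM of the 4 tested members whose genotype groups did not overlap, on linear axes from 0. Points are mice, and the bar beside them is the mean with its SD. Cxcl12, Cxcl15 and Ccl8 lie lower in all 4 HMMRTg/Tg mice and Cxcl1 higher, with 0 of them called over all genes by limma.

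Cxcl15 lies in a cluster of related genes on chromosome 5 that also holds the neutrophil attractants Cxcl1, Cxcl2, Cxcl3 and Cxcl5, all ligands of Cxcr2. On GRCm38.p6 their order is Cxcl5, Cxcl3, Cxcl15, Cxcl1 and Cxcl2, from 90759298 to 90905938. Cxcl1 differed in the other direction from Cxcl15. It was read at 1.63, 0.773 and 1.29 RPM in control mice 1, 2 and 3 and at 3.07, 4.17, 9.97 and 2.34 RPM in HMMRTg/Tg mice 7, 8, 9 and 11. All HMMRTg/Tg mice lay above the controls, with mouse 9 highest, on few reads in each library. In limma the log2 fold change was 1.26 ± 0.44 (SE) with an adjusted p of 0.365, which was 0.356 in edgeR and 0.138 in DESeq2, and over the settings the adjusted p ran from 0.138 to 0.687. Cxcl2, Cxcl3 and Cxcl5 did not reach the level to be tested. Each was highest in mouse 9, where Cxcl2 was at 1.41 RPM (11 reads), Cxcl3 at 0.384 RPM (3 reads) and Cxcl5 at 1.66 RPM (13 reads), and the other 6 mice were at or below 0.428, 0 and 0.512 RPM. Their receptor Cxcr2, carried by neutrophils, was at 0.442 to 1.27 RPM in control mice and at 0 to 0.856 RPM in HMMRTg/Tg mice, below the level tested. The related Cxcr1 gave 0 reads in all 7 mice. Neutrophil markers summed to 253 to 851 RPM in control and 426 to 1316 RPM in HMMRTg/Tg mice, with the highest sum in mouse 11, not in mouse 9. Most of that sum was Ltf, which is also a milk protein, with means of 452 ± 330 RPM (SD, n = 3) in control and 819 ± 461 RPM (SD, n = 4) in HMMRTg/Tg mice. The log2 fold change was negative for 5 of the 7 tested neutrophil markers (median −0.63), beside 38.8% of all genes. Of the 7, 0 had an unadjusted p under 0.05 in limma. S100a8, for example, averaged 17.8 ± 9.29 RPM (SD, n = 3) and 9.34 ± 8.04 RPM (SD, n = 4).

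The promoters of Cxcl1, Cxcl2 and Cxcl3 hold a match to a motif of NF-κB, a factor that the study follows in this tissue. The Cxcl15 window, shown beside them, holds none. Cxcl5 is not among the members with a match, for lack either of a match or of a promoter at hand. Whether a match goes with a difference between the genotypes was not tested. The windows run from 120 to 21 bases before the start of each gene on the plus strand (RefSeq, GRCm38.p6), with matches to the motif in capitals (GGGA, any 4 bases and CC, on either strand):
Cxcl1 (chr5:90891125-90891224): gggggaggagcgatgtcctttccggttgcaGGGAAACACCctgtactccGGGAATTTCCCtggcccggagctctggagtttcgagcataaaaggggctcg
Cxcl2 (chr5:90903779-90903878): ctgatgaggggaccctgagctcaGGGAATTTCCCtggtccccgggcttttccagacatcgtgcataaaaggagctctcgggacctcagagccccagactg
Cxcl3 (chr5:90785981-90786080): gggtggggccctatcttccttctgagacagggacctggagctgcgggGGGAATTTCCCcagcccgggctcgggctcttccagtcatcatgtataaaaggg
Cxcl15 (chr5:90794414-90794513): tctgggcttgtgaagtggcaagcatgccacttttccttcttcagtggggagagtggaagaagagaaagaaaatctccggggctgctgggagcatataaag
The sequence GGGAATTTCC stood 71, 97 and 73 bases before the start of Cxcl1, Cxcl2 and Cxcl3, overlapped by a match on the other strand. Promoters were at hand for 40 of the 55 members, and 16 of these (40%) held at least 1 match within 250 bases before the start, beside 19.7% of 27025 genes. A match is a run of letters and not a bound site. Among the 16 were Cxcl9, Cxcl10, Cxcl13, Ccl20, Ccl22, Ccr1 and Ccr6. Over the tested ones among the 16 the log2 fold changes ran from −1.31 for Cxcl13 to 1.26 for Cxcl1. The interferon-stimulated response element (TTTC, any 2 bases and TTTC, on either strand) was found in Cxcl10 and Cxcl14, or 5% of the 40 members beside 3.46% of all genes.

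The myeloid class had 13 members tested of 21, with a median log2 fold change of −0.14. Ccl8, a monocyte attractant that in the mouse also binds Ccr8, was read at 206, 206 and 187 RPM in control mice and at 139, 126, 146 and 80.5 RPM in HMMRTg/Tg mice. The groups did not overlap, with a control mean of 199 ± 10.9 RPM (SD, n = 3) and an HMMRTg/Tg mean of 123 ± 29.3 RPM (SD, n = 4). In limma the log2 fold change was −0.73 ± 0.22 (SE) with an adjusted p of 0.309, and DESeq2 called it lower (adjusted p = 0.0313) while edgeR did not (0.218). Its adjusted p ran up to 0.588 over the settings.

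Ccl6 and Ccl9, neighboring rodent genes of chromosome 11 whose products act on Ccr1, were both highest in mouse 9 among the HMMRTg/Tg mice. Ccl6 was read at 1403, 941 and 794 RPM in control mice 1, 2 and 3 and at 300.1, 354, 1022 and 611 RPM in HMMRTg/Tg mice 7, 8, 9 and 11. Mouse 9 lay within the control range, and the other 3 lay below it (log2 fold change −1.0, standard error 0.39, adjusted p = 0.431 from limma). Ccl9 was read at 357, 214 and 214 RPM in control mice and at 148, 145, 344 and 174 RPM in HMMRTg/Tg mice (log2 fold change −0.42, standard error 0.32, adjusted p = 0.702). Without mouse 9 the log2 fold changes were −1.34 for Ccl6 (adjusted p = 0.151) and −0.71 for Ccl9 (adjusted p = 0.368). They were −0.77 (adjusted p = 0.698) and −0.18 (adjusted p = 0.939) without control mouse 1, and −0.75 (adjusted p = 0.789) and −0.30 (adjusted p = 0.904) without mouse 7. Ccr1, their receptor on monocytes and macrophages, was at 32.2 to 38.4 RPM in control mice and at 26.3 to 48.1 RPM in HMMRTg/Tg mice, where mouse 9 was highest and above every control (log2 fold change −0.15, adjusted p = 0.880). Close relatives such as Ccl6 and Ccl9, or Ccl2, Ccl7, Ccl8 and Ccl12, could share reads, and how the authors' pipeline assigned such reads was not tested.

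Ccl2, the main monocyte attractant of the family, was read at 22.6, 13.7 and 16.6 RPM in control mice and at 13.8, 19.9, 25.3 and 12.9 RPM in HMMRTg/Tg mice. In limma it had a log2 fold change of 0.0057 ± 0.31 (SE) and an adjusted p of 0.997, with a negative sign under the other scalings of reads. Ccr2, the receptor that brings monocytes into tissue, was at 11.9, 17.0 and 14.0 RPM in control and at 18.3, 18.4, 11.6 and 8.70 RPM in HMMRTg/Tg mice (log2 fold change −0.052, standard error 0.32, adjusted p = 0.973). For both genes the spread within a genotype exceeded the difference between the means. Cx3cr1, the fractalkine receptor of resident macrophages and monocytes, ran from 1.45 to 9.47 RPM within the controls alone (log2 fold change −0.14, adjusted p = 0.953). Ccl12, Ccl7, Ccl3 and Ccl24 had log2 fold changes of −0.24, −0.045, −0.13 and 0.46, with adjusted p from 0.800 to 0.986. Ccl3 overlaps Ccl4 in the annotation, so their reads may not be separable. The macrophage markers summed to 1625 to 3704 RPM in control and 2139 to 3040 RPM in HMMRTg/Tg mice, and 0 of 12 tested were called in either direction.

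Among the classes, the lymphoid tissue class had the widest spread between mice of 1 genotype. The SD within genotype of log2(RPM + 1) had a median of 1.28 over its 7 tested members. This median was 0.769 in the T cell, NK cell and dendritic cell class and 0.553 in the stromal and epithelial class. It was 0.525 in the myeloid class and 0.411 over all genes. Cxcl13, the attractant that stromal cells of B cell follicles make, was read at 1126, 41.3 and 481 RPM in control mice 1, 2 and 3. In HMMRTg/Tg mice 7, 8, 9 and 11 it was at 369, 129, 103 and 33.6 RPM. Each group held a mouse near 40 RPM and a mouse with many times as much. Its log2 fold change was −1.31 with a standard error of 1.01 (adjusted p = 0.708 from limma). Cxcr5, the receptor of Cxcl13 on B cells and follicular T cells, was at 62.9, 1.33 and 53.3 RPM in control mice and at 41.9, 13.9, 2.05 and 3.35 RPM in HMMRTg/Tg mice (log2 fold change −1.06, standard error 1.17, adjusted p = 0.808). The same 3 mice, control mice 1 and 3 and HMMRTg/Tg mouse 7, were highest for the ligand and for the receptor.

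Ccr6, a receptor of B cells and of some T cells, was at 38.0, 0.552 and 17.9 RPM in control mice and at 29.2, 16.8, 0.384 and 0.837 RPM in HMMRTg/Tg mice. It had the widest range of the tested members with reads in every mouse, 98.8-fold from the lowest to the highest mouse (log2 fold change −0.78, standard error 1.26, adjusted p = 0.880). B cell markers varied with these genes. The 12 on the panel summed to 1056, 26.6 and 1178 RPM in control mice 1, 2 and 3 and to 1059, 421, 58.3 and 79.0 RPM in HMMRTg/Tg mice 7, 8, 9 and 11, and none of the markers was at 0 in all mice. With the mean of the B cell markers as a covariate, the standard error was 0.33 for Cxcr5, 0.47 for Ccr6 and 0.45 for Cxcl13. Their log2 fold changes were then −0.44, −0.13 and −0.80, with adjusted p of 0.707, 0.953 and 0.596 from limma. Without control mouse 2, the log2 fold changes were −2.68 for Cxcl13 (adjusted p = 0.162) and −2.62 for Cxcr5 (adjusted p = 0.260). Without control mouse 1 they were −0.32 (adjusted p = 0.968) and −0.23 (adjusted p = 0.984), and without control mouse 3 they were −0.93 (adjusted p = 0.762) and −0.35 (adjusted p = 0.929).

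**Figure D3:**
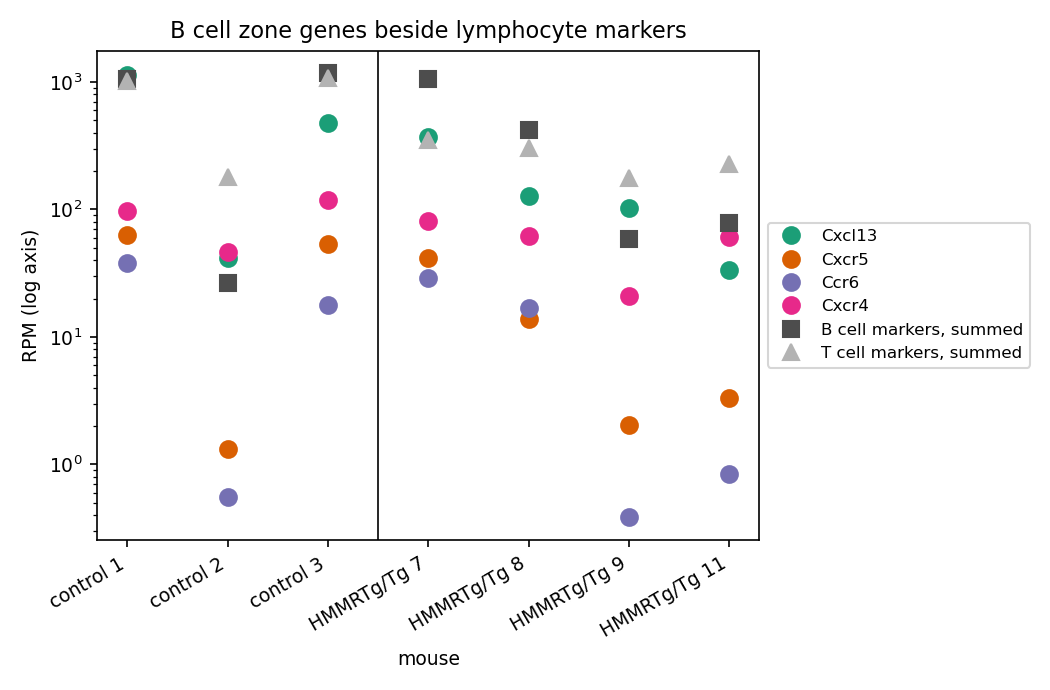
RPM, on a log axis, of Cxcl13, Cxcr5, Ccr6 and Cxcr4 in each mouse beside the summed RPM of 12 B cell and 16 T cell markers. Control mice 1 and 3 and HMMRTg/Tg mouse 7 are high for Cxcl13, Cxcr5, Ccr6 and the B cell markers, and control mouse 2 and HMMRTg/Tg mice 9 and 11 are low.

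Cxcr4, of the same class, had the same 3 mice highest and control mouse 2 and HMMRTg/Tg mice 9 and 11 lowest. Ccr7, Ccl20 and Ccl25 did not share this order of mice. Ccr7, which brings T cells and dendritic cells into lymph nodes, was at 1.09, 3.31 and 13.3 RPM in control and at 4.87, 8.03, 2.30 and 0.335 RPM in HMMRTg/Tg mice (log2 fold change −0.37, adjusted p = 0.905). Control mouse 1, highest for Cxcl13, was the second lowest mouse for Ccr7. Ccl20, the ligand of Ccr6, was at 0.362, 4.09 and 0.117 RPM in control and at 2.95, 5.99, 0 and 4.85 RPM in HMMRTg/Tg mice (log2 fold change 0.85, adjusted p = 0.737). It was thus low where Ccr6 was high in control mice 1 and 3, and low together with Ccr6 in mouse 9. Ccl25, a thymus and gut chemokine, was at 0 to 1.55 RPM in control and 0.896 to 2.56 RPM in HMMRTg/Tg mice (log2 fold change 0.83, adjusted p = 0.551). No member carries the symbol Ccl19, Ccl21a or Ackr1, so these genes could not be analysed under those symbols.

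In the T cell, NK cell and dendritic cell class, 12 of 15 members were tested, with a median log2 fold change of −0.66 and 0 at an unadjusted p under 0.05. The median was 0.11 without control mouse 3 and −1.09 without control mouse 2. Ccl5, made by activated T cells and NK cells, was read at 324, 67.1 and 405 RPM in control mice and at 179, 182, 81.6 and 98.9 RPM in HMMRTg/Tg mice (log2 fold change −0.69, standard error 0.55, adjusted p = 0.717 from limma). Cxcr3, the receptor of effector T cells and NK cells, was at 28.0, 10.6 and 60.8 RPM in control and at 14.6, 18.1, 8.57 and 8.53 RPM in HMMRTg/Tg mice (log2 fold change −1.10, standard error 0.51, adjusted p = 0.523). For both, control mice 1 and 3 lay above every HMMRTg/Tg mouse and control mouse 2 did not. T cell markers varied with them, with sums of 1014, 181 and 1081 RPM in control mice 1, 2 and 3 and of 349, 305, 178 and 226 RPM in HMMRTg/Tg mice 7, 8, 9 and 11. Without control mouse 2 the log2 fold changes were −1.50 for Ccl5 (adjusted p = 0.0987) and −1.72 for Cxcr3 (adjusted p = 0.132). Without control mouse 3 they were −0.21 (adjusted p = 0.894) and −0.52 (adjusted p = 0.664), and Ccl5 was at −0.37 (adjusted p = 0.927) without control mouse 1. Ccr4, Xcr1 and Ccr8, receptors of T helper and regulatory T cells, of cross-presenting dendritic cells and of regulatory T cells, had log2 fold changes of −0.85, −0.70 and −0.70 (adjusted p = 0.610, 0.693 and 0.815). The value of Ccr8 was 0.088 without control mouse 3 and −1.82 without control mouse 2 (adjusted p = 0.972 and 0.203). Ccl22, the dendritic cell ligand of Ccr4, had −0.67 (adjusted p = 0.663).

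The 3 ligands of Cxcr3, all induced by interferon gamma, did not share 1 pattern. Cxcl9 was read at 165, 92.5 and 377 RPM in control and at 203, 287, 137 and 163 RPM in HMMRTg/Tg mice (log2 fold change 0.085, standard error 0.41, adjusted p = 0.966), with a negative sign under the other scalings. Cxcl10 was at 4.88, 13.9 and 21.9 RPM in control and at 44.7, 55.1, 3.96 and 5.02 RPM in HMMRTg/Tg mice (log2 fold change 0.40, standard error 0.86, adjusted p = 0.914). HMMRTg/Tg mice 7 and 8 lay above every control in Cxcl10, and mouse 9 lay below every control. Cxcl11 was at 8.77 RPM in control mouse 3 and at 0.442 to 2.35 RPM in the other 6 mice. Cxcl16, a membrane-bound ligand of macrophages and other cells, had the narrowest range of the tested members, from 68.7 to 101 RPM (log2 fold change 0.11, standard error 0.19, adjusted p = 0.886). Its receptor Cxcr6 stayed at 0.362 to 3.28 RPM.

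Of the remaining stromal and epithelial members, Cx3cl1, the membrane-bound fractalkine of epithelium and endothelium, was read at 45.9, 29.9 and 68.4 RPM in control and at 79.3, 76.1, 53.7 and 70.6 RPM in HMMRTg/Tg mice. Only mouse 9 lay within the control range (log2 fold change 0.59, standard error 0.28, adjusted p = 0.531 from limma). Cxcl14, a chemokine of epithelium and fibroblasts, was at 5.78 to 19.5 RPM in control and 5.52 to 14.1 RPM in HMMRTg/Tg mice (log2 fold change −0.13, adjusted p = 0.951). Ccl28, which draws IgA plasma cells to the lactating gland, was at 0 to 1.99 RPM in control and at 0 to 2.81 RPM in HMMRTg/Tg mice and passed the filter with 3 mice, the fewest allowed (log2 fold change 0.25, adjusted p = 0.915). Ccl11, the eotaxin of fibroblasts, Cxcl17, a mucosal chemokine, and the scavenging receptors Ackr2 and Ackr4 had log2 fold changes of −0.36, −0.69, −0.43 and 0.29 (adjusted p from 0.736 to 0.847). Over the 10 tested members of the class the median was −0.39.

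**Figure D4:**
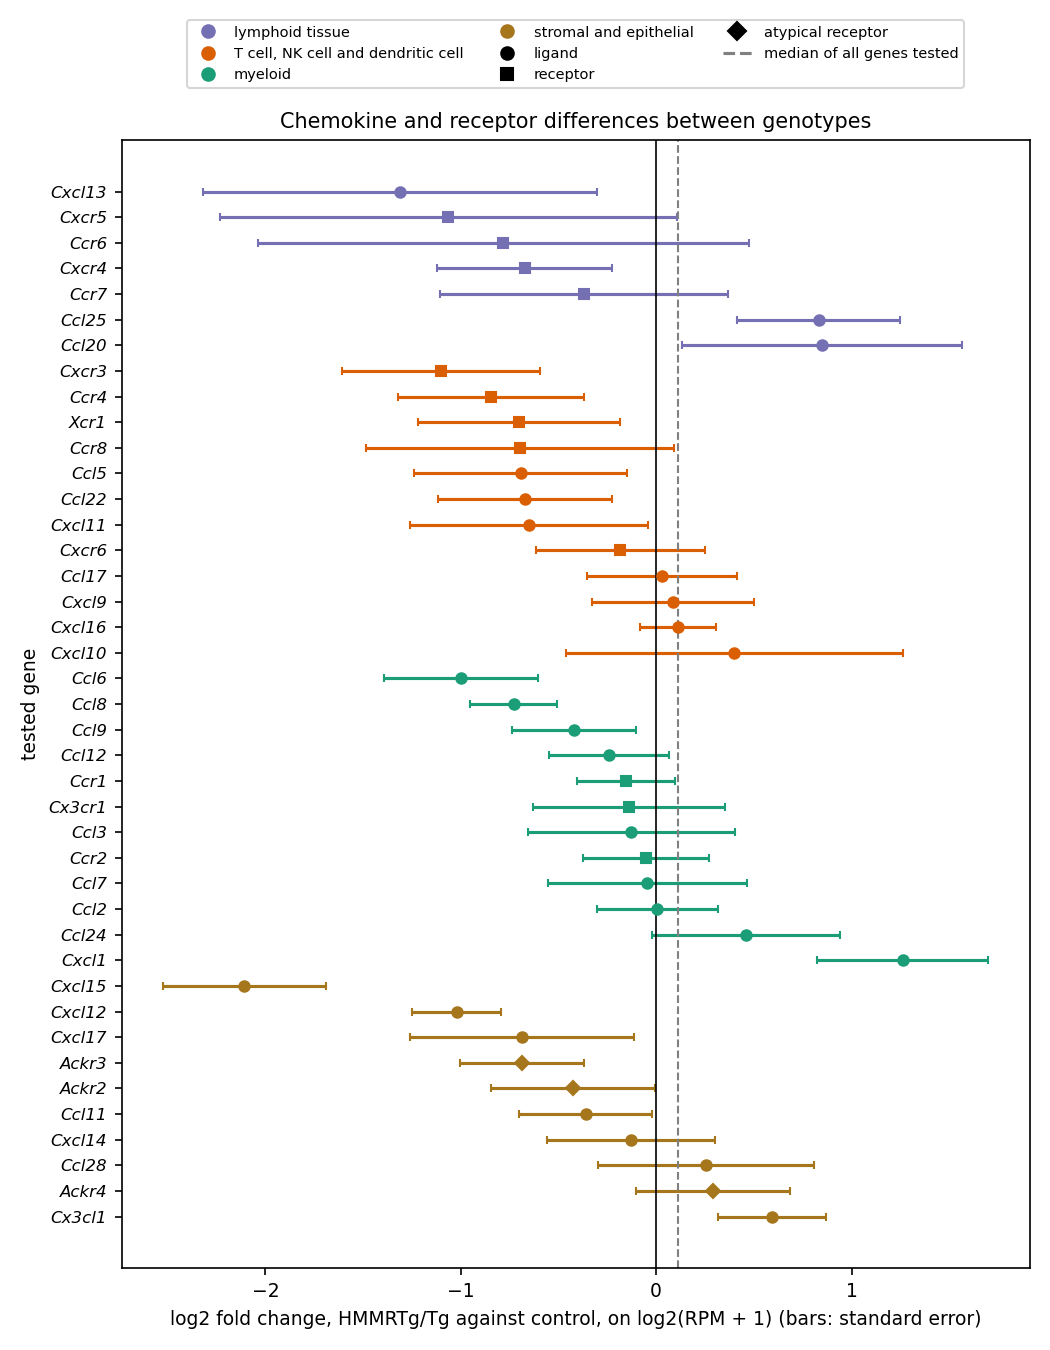
Log2 fold change of 41 of the 42 tested members, HMMRTg/Tg against control, on the log2(RPM + 1) scale, with limma's standard error as bars. Colors give the class, circles ligands, squares receptors and diamonds atypical receptors, and the dashed line the median of all genes tested (0.11). The 12 receptors drawn all lie below 0, and 0 members are called over all genes.

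The log2 fold changes of the 13 tested receptors ran from −1.10 for Cxcr3 to −0.052 for Ccr2, with 0 at an unadjusted p under 0.05 in limma. All 13 were thus negative, beside 38.8% of all genes. The count was 9 of 13 without control mouse 3, 11 without mouse 11 and 12 without control mouse 1, control mouse 2 or mouse 9, and 13 of 13 with TMM factors, quantile normalization, edgeR, DESeq2 and the B cell marker mean as a covariate. Of the 26 tested ligands, 15 had a negative value. So had 10 of 10 tested B cell markers, 14 of 15 T cell markers, 5 of 6 natural killer cell markers and 7 of 12 macrophage markers. By position, 8 of the 9 tested Ccl genes on chromosome 11 had a negative value (median −0.36). On chromosome 5, 3 of the 6 tested Cxcl genes did. On chromosome 9 a negative value was found for all 8 tested Ccr, Cxcr6, Xcr1 and Cx3cr1 genes (median −0.32). These 8 are among the 13 receptors, all negative in limma, so this is not a separate result about position. Also on chromosome 9, Cxcr5 had −1.06, Ackr2 −0.43 and Ackr4 0.29.

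Genes that act upstream or downstream of the chemokines were not called over all genes in any of the 4 lists. At an unadjusted p under 0.05, 3.22% of all genes were lower and 6.49% higher, which the counts of the lists are read against. Of 48 tested genes of chemokine receptor signaling, 2 were lower and 0 higher (median log2 fold change −0.11), namely the myeloid kinase gene Fgr (−1.24, adjusted p = 0.376) and Pik3r5, a regulatory subunit of PI3K gamma (−0.72, adjusted p = 0.468). Gnai2, the inhibitory G protein subunit of leukocytes, had a value of 0.52 (adjusted p = 0.523). Of 17 tested genes of lymphotoxin and non-canonical NF-κB input, which induces Cxcl13 in lymphoid stroma, 1 was lower and 0 higher (median −0.12). It was Tnfsf13b, the B cell survival factor BAFF (−0.75, adjusted p = 0.334). Lta and Ltb, the lymphotoxin genes of lymphocytes, had values of −1.47 and −1.10 (adjusted p = 0.623 and 0.640), and Nfkb2 had 0.44 (adjusted p = 0.622).

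Of 17 tested genes of the interferon gamma axis, 0 were lower and 0 higher at an unadjusted p under 0.05 (median −0.087), and Ifng itself had a value of −0.54 (adjusted p = 0.783). Of 23 tested homing and adhesion genes, which let leukocytes stop on the vessel wall, 3 were lower and 0 higher (median −0.42). These were the integrin gene Itgam (−0.80, adjusted p = 0.454), Klf2, a regulator of lymphocyte exit (−0.90, adjusted p = 0.507), and Glycam1 (−2.42, adjusted p = 0.476), a selectin ligand of lymph node vessels that is also a milk protein. A negative value was found for 22 of the 23, beside 38.8% of all genes.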

How the data were processed

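The authors sequenced RNA from paraffin sections of 3 control and 4 HMMRTg/Tg mammary samples, 1 from each mouse, with a mouse AmpliSeq panel on an Ion Torrent instrument and processed with the AmpliSeqRNA plug-in. The submitters' processing notes name mm10 and Transcriptome Analysis Console, and the aligner is not given in the sources used here. For each mouse the authors deposited a column of values named TPM, which is used here as RPM, since each mouse sums to 1000000 and values below 1000 reads came out as whole reads (100% within 0.05 reads). These reads were recovered. Symbols turned into dates (27) were restored from amplicon names. Groups and mouse numbers came from the sample titles.

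The test was limma 3.58.1 (R 4.3.3, with a variance trend and genotype as the term) on log2(RPM + 1) of 13080 genes at 1 RPM or more in at least 3 mice, with Benjamini-Hochberg adjustment over them. The recovered reads also went through DESeq2 1.42.0 and the quasi-likelihood test of edgeR 4.0.16. Permutation tests were exact and two-sided over 35 splits, with 0.0571 the smallest p possible. Within a group, each pair of libraries differed by more than counting noise (chi-square over degrees of freedom of 27.6 to 140). The pipeline was tested on simulated data. Alternatives were pseudocounts of 0.1 and 10, other filters, TMM factors, quantile normalization, no variance trend, leaving out each mouse, and the mean of the B cell markers as a covariate.

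The members, classes, lists and tests were chosen with earlier results of these data known. Genes were named as a fixed set of best known members, the 4 of lowest unadjusted p and the 3 of highest mean in each class, any member called over all genes, the members nearest the filter, and 4 genes per pathway list. Other genes named in the text were chosen after their values were seen. Coordinates and promoters are from RefSeq (GRCm38.p6). The values of 1 tested member, which is included in the counts and medians, are not reported here.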

Additional observations from a re-analysis of the deposited data

Results flagged for a closer look

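For the 42 tested members, the 4 HMMRTg/Tg mice were searched for a mouse far from the other 3, which chance gives in about 1 in 20 groups, and 2 members were found. Ccl7, a monocyte attractant close to Ccl2, was read at 1.17 RPM in mouse 11 and at 6.42 to 7.81 RPM in mice 7, 8 and 9. Ccr1 was read at 48.1 RPM in mouse 9 and at 26.3 to 29.1 RPM in mice 7, 8 and 11.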

How the results depend on the processing

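The count of 0 called members was 3 in DESeq2, and 0 to 1 when a mouse was left out (1 without mouse 9, Cxcl12). Members lower at an unadjusted p under 0.05 numbered 8 in DESeq2 and 3 to 15 when a mouse was left out, with 15 without control mouse 2. Members higher numbered 0 with 1 RPM required in all 7 mice, 2 with the B cell marker mean as a covariate and 1 to 3 when a mouse was left out. The median of the T cell, NK cell and dendritic cell class ran from −1.09 to 0.11 when a mouse was left out, and the other class medians moved by less than the spread between mice. Of 28 genes followed over 17 alternatives, 19 kept their sign. The value of Ccl2 was −0.088 with TMM factors, −0.063 with quantile normalization, −0.094 in edgeR and −0.12 in DESeq2, and −0.17 to 0.19 with a mouse left out. That of Cxcl9 was −0.012 with TMM factors, −0.0006 with quantile normalization, −0.14 in edgeR and −0.16 in DESeq2, and −0.39 to 0.62 with a mouse left out. That of Cxcl16 was −0.0084 in DESeq2 and −0.011 to 0.26 with a mouse left out. Leaving out a mouse also turned the sign of Ccl28 (−0.11 to 0.68), Ccr2 (−0.19 to 0.15), Ccr7 (−1.01 to 0.38), Cx3cr1 (−0.70 to 0.35), Cxcl10 (−0.18 to 0.98) and Cxcl14 (−0.54 to 0.26). Among the other members, Ccl3, Ccl17, Ccr8, Cxcl11 and Cxcr6 also turned sign when control mouse 2, control mouse 3 or mouse 9 was left out. Over all the alternatives Ccr6 ran from −2.16 to 0.167, Ccl7 from −0.24 to 0.435 and Ackr4 from −0.00909 to 0.669, so that these turned sign too. The cause was not tested. No paired analysis was possible because the groups share no mouse number. Ccl28 had at most 22 reads in a mouse and Cxcr2 at most 8, so that counting error is large in both.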

Other observations

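Among the 13 members not tested, those just outside the filter on low values were Ccr9 and Ccr10. Ccr9, a homing receptor of gut and thymus, gave 8, 3 and 17 reads in control mice 1, 2 and 3 and 0, 1, 1 and 0 in HMMRTg/Tg mice 7, 8, 9 and 11. The ratio of summed reads per library size, control over HMMRTg/Tg, was 18.7 (95% exact interval 4.72 to 162, counting error only). Reads were pooled over the mice of a group, so such intervals leave out the spread between mice. Without a filter on low values the log2 fold change of Ccr9 was −1.01 (adjusted p = 0.309 from limma). Ccr10, a receptor of plasma cells and skin T cells, gave 21 reads over the control mice and 6 over the HMMRTg/Tg mice, a ratio of 4.68 (1.83 to 14.2), but control mouse 2 gave 0. The only other members with a computed ratio were Cxcl2, Cxcl3, Cxcl5 and Ccr3. Cxcl2 went the other way, at 0.267 (0.0496 to 0.946). The ratio was 0.372 for Cxcl5, 1.5 for Ccr3 (0.515 to 4.48) and 0 for Cxcl3. The intervals of these last members included 1. Ccl4 gave 9 reads over the control mice, all in control mouse 3, and 3 over the HMMRTg/Tg mice. Ccr1l1 gave 11 and 4 reads. Of the 13 members not tested, the groups did not overlap for Ccr9 only. The share of all untested genes without overlap was not counted, so this has no background to be read against.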
